A study of Mus musculus with 2 samples.

Results

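Genomic models within known genes are stretches of aligned long reads that fall inside an annotated gene but follow none of its splice patterns, so that the model building software gives them neither a known nor a new spliced structure. They were taken as all models with the Genomic transcript label and the Known gene label, and 6609 of 64851 mouse models in replicate 1 and 8925 of 83878 in replicate 2 met that rule. All but 216 of them in replicate 1 and 266 in replicate 2 had a single exon. The 1 further model that met it in replicate 1 lay on a spike-in sequence and was left out. The series is long-read RNA sequencing of heart tissue from adult male B6CASTF1/J mice (the cross of C57BL/6J with CAST/EiJ), aged 18 to 20 months. It holds 1 group with 2 libraries of total RNA, biological replicates 1 and 2, each started from 2 µg of RNA with spike-in RNA added. Both carry the same donor identifier, so a difference between these libraries may be technical, and no condition was compared. The p-values set such a difference against counting error and hold no measure of the spread between libraries.

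As background, a polyadenylated messenger RNA is normally read from its tail backwards, so a cDNA that stops early covers the end of the last exon. Reads in an intron or across an exon-intron border can come from unspliced precursor RNA, from transcripts that end within an intron or from priming on a stretch of A bases, and a count of reads does not separate these sources. In cardiomyocytes, genes of contraction, calcium handling and oxidative metabolism make up much of the messenger RNA, and several of them end in long 3′ untranslated regions.

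Each model was classed against the annotated exons of its gene. Last-exon models lay, inside the gene, within 1 annotated last exon, intronic models touched no exon, exon-intron spanning models held bases of an exon and of an intron, and other-exon models were exonic but not within 1 last exon. Models of the libraries that overlapped on a strand were joined into 11069 loci. A locus took the class that held most of its reads over both libraries, so single models in it can be of another class. The sequences at the models' 3′ ends are shown first, because the 3′ end is the part of these models that is most often shared with the annotation. They are the last 30 bases before the 3′ end, read from annotated exons (GENCODE release M21, mm10), of the loci with the most reads in their lower library, and capitals mark a polyadenylation signal, AATAAA or ATTAAA.
Mb, last-exon, chr15:77015487-77015516, minus strand: gtctcAATAAAatatcctgcgagtcctcaa
Esrra, last-exon, chr19:6910977-6911006, minus strand: agaaaaaaaatatactatggagctcaagta
Doc2g, exon-intron spanning, chr19:4006975-4007004, plus strand: cacaaagcaaAATAAAcacctgcttctgcc
Tcap, exon-intron spanning, chr11:98384924-98384953, plus strand: tagcactgcAATAAAtgctcagccatgttc
Pabpc4, other-exon, chr4:123282882-123282911, plus strand: caaaaaccttaaaaaaaaaaaaaagaaaag
Fth1, other-exon, chr19:9985063-9985092, plus strand: catttcttcaAATAAAgaattttggtaccc
The Mb, Esrra, Doc2g, Tcap and Fth1 ends lie on annotated transcript ends. The Pabpc4 end lies 3851 bases before the nearest annotated end of the gene, and 16 of the 20 bases after it are A (chr4:123282912-123282931, aaaagaagaggaaaaaaaaa).
The intronic loci with the most reads lie in Nckap5, Kidins220 and Cacna2d3, and their bases were not read here. Intronic models that lie in an exon of another gene on the same strand can be read, and the 3 such loci with the most reads, a choice made after their values were seen, are shown for their ends.
Gm45233, in Etfb, chr7:43457751-43457780, plus strand: gatactctgcAATAAAactgtgcctttcca
Podn, in Scp2, chr4:108043839-108043868, minus strand: aaaaagaaaATTAAAacagctcttcctgat
Gm45692, in Rnf170, chr8:26143842-26143871, plus strand: ttctttggAATAAAaatagtttatctaaaa

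Genomic models held 38706 of 688861 mouse reads in replicate 1 and 61341 of 1003999 in replicate 2. That is 5.62% (95% Clopper-Pearson interval 5.56 to 5.67) and 6.11% (6.06 to 6.16), with a mean of 5.86 ± 0.347% (SD, n = 2), and the intervals do not overlap (two-sided Fisher's exact test, p = 1.40e-40). Intervals, floors and these p-values cover counting error only, since reads are treated as independent molecules. The reads were spread over 5524 genes in replicate 1 and 6938 genes in replicate 2. Most models were thin, with 54.4% and 51.8% of them resting on 1 read, while the 544 and 916 models with 10 or more reads held 68.0% and 72.7% of the genomic reads. Protein-coding genes took 96.2% and 95.4% of the reads, and long noncoding RNA genes 3.44% and 4.20%. A locus without reads can still have had up to 4.36 CPM (mouse reads scaled to 1e6) in replicate 1 and 2.99 CPM in replicate 2, the level of 3 reads.

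The tissue label was checked against marker genes. Replicate 1 gave 40648 CPM and replicate 2 gave 43512 CPM for the sum of the 8 cardiomyocyte markers, while none of the 5 skeletal muscle markers had a read. Endothelial markers summed to 562 and 788 CPM, fibroblast markers to 684 and 511 CPM, mural markers to 332 and 342 CPM, macrophage markers to 102 and 86.7 CPM, atrial markers to 4121 and 3144 CPM and erythroid markers to 6479 and 5958 CPM. In a bulk library, fewer cells of a type and less RNA per cell cannot be told apart. Of the cardiomyocyte marker reads 27.0% in replicate 1 and 10.7% in replicate 2 were on genomic models, and the label given to reads of Pln, described below, differed between the libraries.

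Nearly all genomic reads lay in last exons. Last-exon models held 89.1% (interval 88.8 to 89.4) of them in replicate 1 and 84.7% (84.4 to 85.0) in replicate 2. Intronic models held 5.63% (5.40 to 5.86) and 7.37% (7.17 to 7.58), and exon-intron spanning models 4.39% (4.19 to 4.60) and 6.82% (6.63 to 7.03). Other-exon models held 0.698% (0.617 to 0.786) and 0.926% (0.852 to 1.00). Each of these shares differed between the libraries by more than counting error, with Benjamini-Hochberg adjusted p over the classes from Fisher's exact test of 1.34e-88, 2.71e-27, 5.44e-59 and 1.27e-04. The models outside the gene's span held 0.176% and 0.166% (adjusted p = 0.753). Intronic models were more common by number than by reads, at 901 of the 6609 models in replicate 1 and 1676 of the 8925 in replicate 2.

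**Figure D1:**
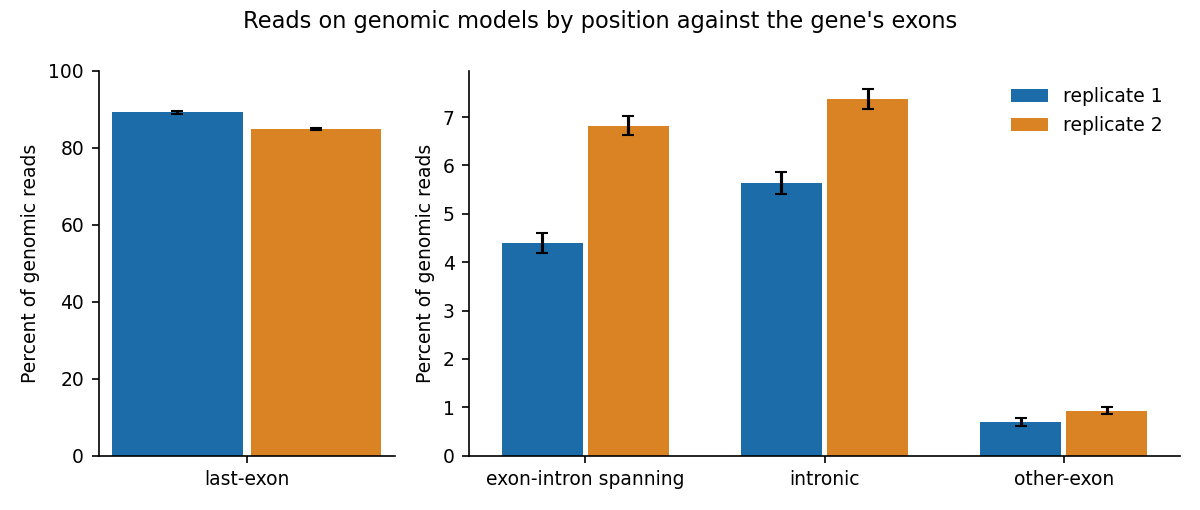
Percent of genomic reads (y axis) by class of the model against its gene's exons (x axis) in replicates 1 and 2. Bars start at 0, whiskers are 95% Clopper-Pearson intervals, and the 2 panels have different scales. Last-exon models take 89.1% and 84.7%, and every other class shown is higher in replicate 2.

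The 3′ ends of last-exon models were mostly annotated ends and their 5′ ends were not. Of 4949 last-exon models in replicate 1, 78.1% ended exactly on an annotated transcript end of the gene, and of 6081 in replicate 2, 77.6%. These models held 87.2% and 84.2% of the last-exon reads. The 5′ end lay on an annotated exon start in 6.87% and 5.92% of last-exon models, which held 20.8% of last-exon reads in replicate 1 and 6.22% in replicate 2. The Pln model of 5067 reads in replicate 1, described below, begins on an exon start. Single-exon incomplete models (ISM, a part of a known transcript) shared the 3′ pattern but not the 5′ one. Their last-exon models ended on an annotated end in 92.2% and 91.3% and began on an exon start in 95.7% and 95.7% of cases. The median last-exon genomic model was 576 bases long in replicate 1 and 512 bases in replicate 2, against 573 and 578 bases for the incomplete models.

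Of the last-exon models that ended elsewhere, 1082 in replicate 1 and 1364 in replicate 2, few ended close to an annotated end. The median distance was 813 and 799 bases, and 5.73% and 5.43% lay within 100 bases. In 610 and 795 of them the end was upstream of the nearest annotated end, and in 472 and 569 it was downstream.

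A polyadenylation signal stood in the last 40 bases of most annotated ends used by last-exon models. At such ends the signal belongs to the annotation, and whether the reads themselves ended there was not tested. AATAAA or ATTAAA was found on the transcribed strand at 82.2% of 3845 annotated ends used by last-exon models in replicate 1 and 81.3% of 4700 in replicate 2. At the ends away from the annotation it was found at 53.6% of 918 in replicate 1 and 49.5% of 1168 in replicate 2, counting ends whose window lay in 1 annotated exon. Of all 791837 adjoining 40-base windows of the last exons of genes with reads, 4.12% held a signal. Single-exon incomplete models gave 79.8% and 80.0% at annotated ends, close to the genomic ones. Spanning models at annotated ends gave 74.2% and 71.3%. Other-exon models that ended away from the annotation had the lowest shares, 16.0% of 81 ends and 13.5% of 111. Ends in 1 gene share sequence, so these shares are descriptions with no test.

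The bases after the 3′ end could be read where the exon went on. At last-exon ends away from the annotation, 9.34% of 899 ends in replicate 1 and 10.2% of 1142 in replicate 2 were followed by 12 or more A in 20 bases. At last-exon ends on annotated ends within a longer exon the shares were much the same, 9.30% of 688 and 7.08% of 862. Among all 20-base windows of last exons 1.38% were as rich in A. Other-exon ends away from the annotation were followed by such a stretch in 20% of 60 and 18.1% of 83 cases, the Pabpc4 end shown above among them, and spanning models at annotated ends in 33.3% of only 15 and 22.2% of 27. A stretch of A after an end is a description of the sequence and does not say how the cDNA began. The motifs and A-rich windows that were not found concern these letters in these windows alone.

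**Figure D2:**
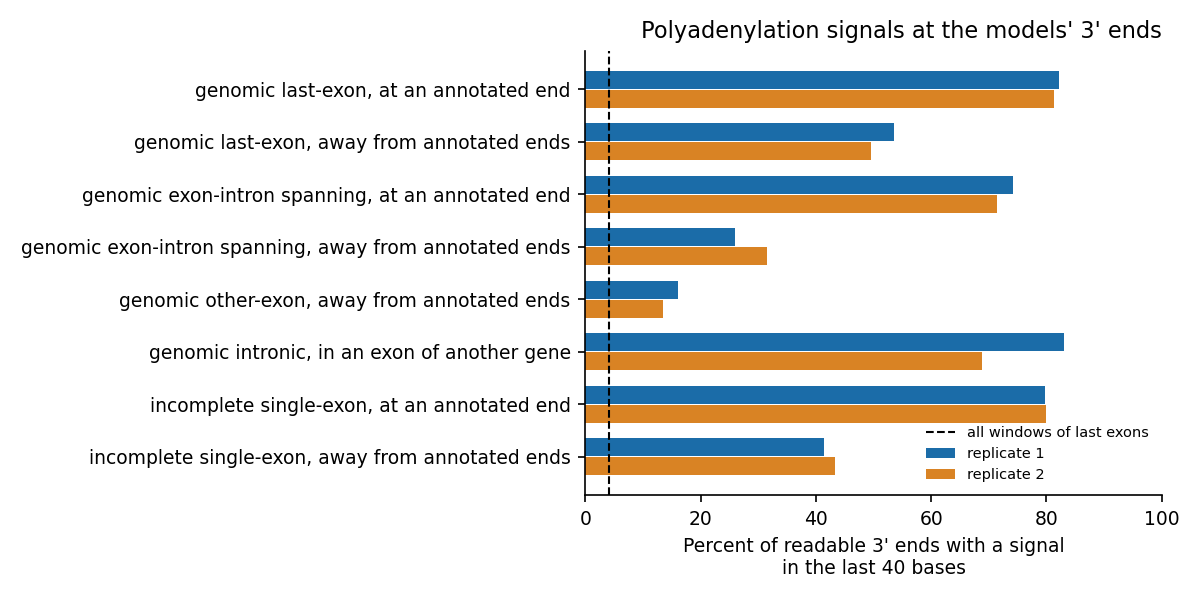
Percent of distinct readable 3′ ends (x axis) with AATAAA or ATTAAA in the last 40 bases, by kind of model (y axis), in replicates 1 and 2. The dashed line is the 4.12% of all 40-base windows of last exons. Ends on annotated ends reach 71.3% to 82.2%, and other-exon ends away from the annotation 13.5% to 16.0%.

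The last-exon loci with the most reads in their lower library were led by Mb, which encodes the oxygen-binding protein myoglobin. The Mb locus (chr15:77015487-77015905, minus strand) held 2121 reads in replicate 1 and 3971 in replicate 2, which is 53.96% and 59.97% of all reads of the gene. Esrra, the nuclear receptor that activates genes of oxidative metabolism, had 784 and 1491 reads on a model of 73 bases (chr19:6910977-6911049). These were 94.5% and 97.1% of the reads of Esrra, and 46 and 44 reads of the gene were spliced. The Esrra locus lies opposite an exon of Trmt112, a gene with 25 and 39 reads of its own. The strand of the reads rests on the authors' alignment, so a gene and an antisense partner cannot be told apart here.

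Apobec2, a muscle member of the cytidine deaminase family, had 536 and 1103 reads on a model whose deposited extent is 1 base (chr17:48419231-48419231), an annotated end. Gabarapl1, an autophagy protein of the ATG8 family, had 505 reads in replicate 1 and 1011 in replicate 2, or 94.39% and 95.02% of the gene. Apoe, which encodes the lipid carrier apolipoprotein E, had 353 and 677 reads. These 5 loci were in both libraries, and at each the CPM was lower in replicate 1, with a log2 ratio of -0.36 at Mb, the smallest, and -0.50 at Apobec2, the largest. Nexn, which encodes the Z-disc protein nexilin, had 254 and 529 reads, and its model was 1 base long in replicate 1 and 2413 bases long in replicate 2. Usp50, named for the ubiquitin-specific proteases, had 244 and 406 reads and not a single read on a known transcript. Its locus overlaps an exon of Gm10774, which had 54 and 79 reads.

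Models with an extent of 1 base numbered 313 in replicate 1 and 447 in replicate 2 and held 2508 and 5410 reads, or 6.48% and 8.82% of genomic reads. Among the single-exon incomplete models of known genes, 0 and 1 were of this length. Such an extent cannot be the length of the reads, so length of a genomic model is not a measure of read length.

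Intronic models were short and lay in long introns. Their median length was 251 bases in replicate 1 and 218 bases in replicate 2, and the median intron around them was 17744 and 18921 bases long. Of these models 64.8% and 67.9% lay in introns of over 10 kb, and 78.8% and 75.7% rested on 1 read. Long introns hold more bases, and the models were not set against the lengths of all introns. Nckap5 led with 124 and 194 reads at chr1:126708472-126708562. Kidins220, a scaffold protein of neurotrophin signalling, had 112 and 243 reads at chr12:25021363-25021541. Both models are small, 90 to 91 bases and 179 bases, and both loci have almost the same borders in the libraries.

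The genes around the leading intronic loci had hardly any other reads. The intronic locus took 98.4% and 99.0% of the reads of Nckap5, 94.9% and 96.0% of Kidins220, 98.7% and 98.1% of Cacna2d3 (an auxiliary subunit of voltage-gated calcium channels) and 96.7% and 97.5% of Jarid2 (a subunit of Polycomb repressive complex 2). None of these 4 genes had a read on a known transcript in replicate 1, and Jarid2 alone had 1 in replicate 2. The Cacna2d3 locus lies opposite an exon of Lrtm1, a gene with 68 and 100 reads.

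Exons of other genes on the same strand held 386 of the 2178 intronic reads in replicate 1 (17.7%) and 689 of 4523 in replicate 2 (15.2%). Podn, which encodes a matrix proteoglycan, had 53 and 130 intronic reads within an exon of Scp2, the sterol carrier gene. Scp2 itself was given 321 and 543 reads. Gm45233 had 61 and 125 intronic reads within an exon of Etfb, a subunit of the electron transfer flavoprotein, which was given 859 and 1232 reads. Gm45692 had 35 and 89 within an exon of Rnf170, a gene with 13 and 16 reads. At these loci, as the sequences above show, a polyadenylation signal begins 20 to 22 bases from the end. Intronic models in an exon of another gene had a signal in 83.0% of 47 readable ends in replicate 1 and 68.8% of 48 in replicate 2.

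Intronic genomic models free of any exon on either strand numbered 653 in replicate 1 and 1301 in replicate 2. Single-exon antisense models within introns and free of exons were more numerous, at 2846 and 5422, so there were 0.229 and 0.240 sense models per antisense one. The sense models were shorter, with a median of 182 and 181 bases against 538 and 379 bases.

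Exon-intron spanning models were the longest class, with a median of 1482 bases in replicate 1 and 1215 bases in replicate 2. They lay in 590 and 931 genes. Their 3′ end was an annotated one in 22.1% and 18.5% of models, which held 46.2% and 43.0% of the reads. In 38 and 49 models the extent ran from an annotated start to an annotated end of the gene. Tcap, which encodes the Z-disc protein telethonin, was of this kind, with 100 reads in replicate 1 and 182 in replicate 2 over the whole gene, its intron included (chr11:98383811-98384953). Those reads were 4.62% and 5.51% of the gene. Doc2g had 110 and 222 reads, or 31.3% and 38.8% of the gene, on a model of 357 bases in both libraries. Myl2, the ventricular regulatory myosin light chain, had 42 and 73 such reads of 2716 and 4512, a share of 1.55% and 1.62%.

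Other spanning loci made up most of their gene's reads. Myadml2 had 61 and 95 spanning reads of 64 and 96, and Mfsd5 30 and 58 of 44 and 85. Gm37401 had all of its 45 and 76 reads there, opposite an exon of Rhoa. The locus of AI837181 had 29 and 50 reads. Its model was 1 base long in replicate 1 and 2006 bases long in replicate 2, so only the replicate 2 model was spanning.

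Other-exon loci were few, 199 in all, and low. Pabpc4, a cytoplasmic poly(A)-binding protein, had 25 and 48 reads at the A-rich end shown above, 34.2% and 46.2% of its reads. Fth1, the ferritin heavy chain, had 19 and 28 of 2418 and 3504 reads. Naa15, the auxiliary subunit of an N-terminal acetyltransferase, had 23 and 18 reads and Lrtm1 had 18 and 34, each on a single base. Rubcn, a regulator of autophagy, had 6 and 14 reads, and Gm26669, Gm1821 and Adap2os had 8 to 13 reads in replicate 1 and 12 to 20 in replicate 2.

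Loci with 5 or more reads were found in the other library more often than loci of any read number (59.97% from replicate 1 and 44.7% from replicate 2). Of 11069 loci, 3811 (34.4%) had reads in both. The share was 42.1% for last-exon, 23.5% for spanning, 17.6% for other-exon and 16.8% for intronic loci. Among the loci with 5 or more reads in replicate 1, 86.5% of 1167 were found in replicate 2, and of the 1779 with 5 or more in replicate 2, 84.5% were found in replicate 1. For intronic loci these shares were 96.4% of 56 and 89.0% of 118. At 20 or more reads the shares over all loci were little changed from those at 5, at 87.7% of 252 and 84.9% of 458. Spanning loci of replicate 1 were found in replicate 2 in 87.9% of 66 at 5 or more reads and 90% of 10 at 20 or more. Spanning loci of replicate 2 were found in replicate 1 in 79.0% of 105 and 67.7% of 31.

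**Figure D3:**
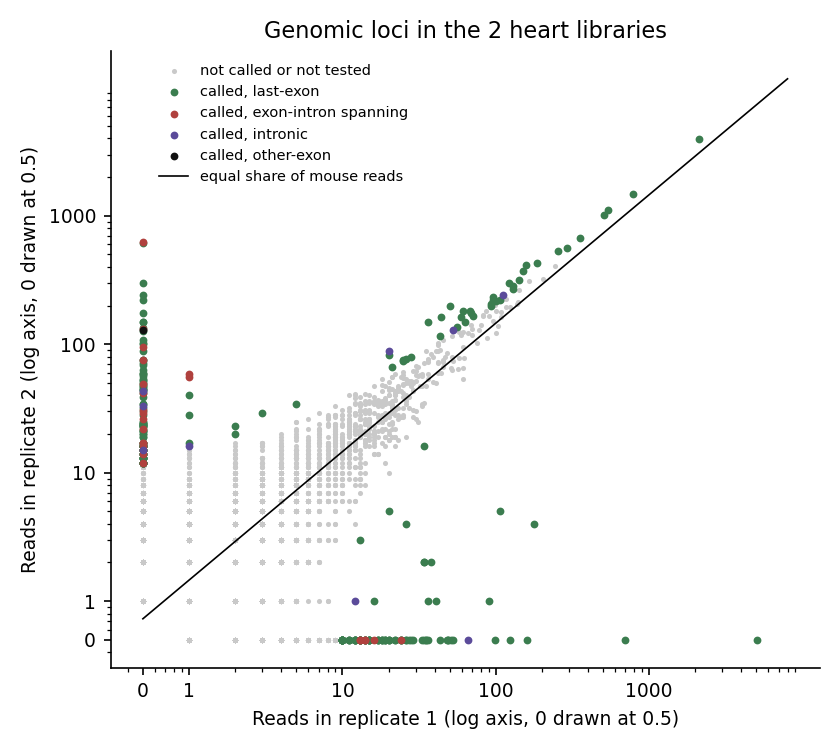
Reads of each genomic locus in replicate 1 (x axis) and replicate 2 (y axis), both on log axes with 0 drawn at 0.5. Grey points were not called or not tested, coloured points were called by the exact binomial test, and the line marks an equal share of mouse reads. Most called points lie on an axis, with 0 reads in 1 library, and the called points near the line lie mostly above it.

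Of 1417 loci with 10 or more reads in both libraries together, 256 (18.1%) were called different. Each locus was set against the share of mouse reads that its library holds, by an exact binomial test (two-sided, Benjamini-Hochberg adjusted over all features, threshold 0.05). The background, the same test over all 12835 features of the series, was 6.83%. The share called was 18.0% for last-exon, 27.9% for spanning and 10.8% for intronic loci. Of the 256, 93 were higher and 163 lower in replicate 1, against a background of 3.28% and 3.55% of all features. The loci with reads in both libraries had a median log2 ratio, replicate 1 over replicate 2, of -0.30, and all features with reads in both one of 0.04. The 5 leading last-exon loci named above, Mb, Esrra, Apobec2, Gabarapl1 and Apoe, were all called lower in replicate 1, with adjusted p of the exact binomial test from 7.74e-19 at Mb to 6.44e-04 at Apoe. Of the 8 last-exon loci named by that rule, Nexn and a Pln locus were also called lower (exact test, adjusted p = 7.50e-05 and 0.00154). Usp50 was not called (0.503). Of the intronic loci named, Kidins220 (adjusted p = 0.00872, exact test) and Podn (0.0209) were called lower, and of the 8 spanning and 8 other-exon loci with the most reads in their lower library none was, Doc2g coming nearest at 0.0682. With other library scalings Doc2g was called lower in replicate 1 (adjusted p of the exact test 0.00331 with TMM and 5.08e-05 with DESeq2 factors), and Tcap was with DESeq2 factors (0.00497). In the called set of 256, 192 loci had reads in only 1 library, 113 with none in replicate 1 and 79 with none in replicate 2. Over all features, 420 of the 877 called had reads in only 1 library, 244 with none in replicate 1 and 176 with none in replicate 2.

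At those 192 loci the other library usually had reads with another label. In replicate 2, 77 of the 79 loci without genomic reads overlapped a single-exon incomplete model of a known gene, and in replicate 1, 107 of the 113 did. How often other genomic loci overlap such models was not counted, so these counts have no background. At all loci with 10 or more reads in replicate 1 only, 7663 genomic reads stood against 15020 incomplete reads. At those in replicate 2 only, called or not, 6353 stood against 3695. Pln had the most reads of the 192 loci. It encodes phospholamban, which restrains the calcium pump of the sarcoplasmic reticulum. A model of 511 bases (chr10:53343757-53344267, plus strand) was labelled Genomic with 5067 reads in replicate 1, and a model with the same start and end was labelled incomplete with 10441 reads in replicate 2. A second Pln locus further along the last exon had 291 and 565 genomic reads. Gadd45gip1, a factor of mitochondrial translation, had 161 genomic reads in replicate 1 and 288 incomplete reads in replicate 2 on the same coordinates. Such pairs with equal coordinates numbered 11 with the Genomic label in replicate 1 and 8 with it in replicate 2.

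In other genes, which had no pair with equal coordinates, the labels also differed between the libraries, here by reads of the whole gene. Mrpl30, a mitochondrial ribosomal protein, had 697 genomic and 0 single-exon incomplete reads in replicate 1, and 0 and 1424 in replicate 2. Des, which encodes the intermediate filament protein desmin, had 0 genomic and 333 single-exon incomplete reads in replicate 1, and 624 and 0 in replicate 2. Its 624 genomic reads lay on a spanning model of 2898 bases. Acot13, an acyl-CoA thioesterase, had 0 and 350 in replicate 1, and 611 and 0 in replicate 2. Of the 611, 610 lay on a model of 1 base. Totals of a gene do not place the reads of both labels on the same bases. With genomic and single-exon incomplete models joined together, 57 of 1611 loci that hold a genomic model were called. That is 3.54%, near the background of 3.17% of all features in that test. Of the 57, 5 were higher and 52 lower in replicate 1, while of all 12777 features 202 were called higher and 203 lower. The median log2 ratio of these joined loci was -0.26. The joining was chosen after the data were seen.

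Among called loci with reads in both libraries, the extreme ratios lay in genes where the single-exon incomplete reads were mostly in the other library. Samm50, a subunit of the outer membrane sorting complex of mitochondria, had 91 reads in replicate 1 and 1 in replicate 2. Ivns1abp had 177 and 4, and Ak1, an adenylate kinase, had 41 and 1. These genes had no single-exon incomplete read in replicate 1 and 184, 355 and 52 in replicate 2. At the other end, Crip2 had 1 and 59 reads, Trdn, which encodes triadin of the calcium release unit, had 1 and 56, and Acad12, of the acyl-CoA dehydrogenase family, had 1 and 40. Their single-exon incomplete reads were 26, 36 and 17 in replicate 1 and 0, 5 and 2 in replicate 2. The log2 ratios were 7.05, 6.01 and 5.90 for the first 3 and -5.34, -5.26 and -4.78 for the last 3, with adjusted p of the exact binomial test between 2.81e-60 and 9.33e-07.

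At the level of genes, 2777 of the 4087 known genes with 20 or more reads in each library had genomic reads (67.9%). In the 2008 genes with 50 or more reads in each, the median genomic share was 0.526% in replicate 1 and 1.05% in replicate 2, and the upper quartile 4.16% and 5.35%. The share exceeded 10% in both libraries in 207 genes and 50% in 52 genes. The 10 genes with the highest share were Usp50, Gm15337, Gm20659, Gm43126, Gm45233, Cacna2d3, Tsc1, Nckap5, Kidins220 and Jarid2, at 96.7% to 100% in both libraries. Tsc1, the growth regulator hamartin, had 106 of 107 and 223 of 226 reads on genomic models in its last exon. Gm15337, Gm20659 and Gm43126 are annotated as antisense genes, with 62 and 78, 68 and 180, and 130 and 282 reads, all genomic.

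**Figure D4:**
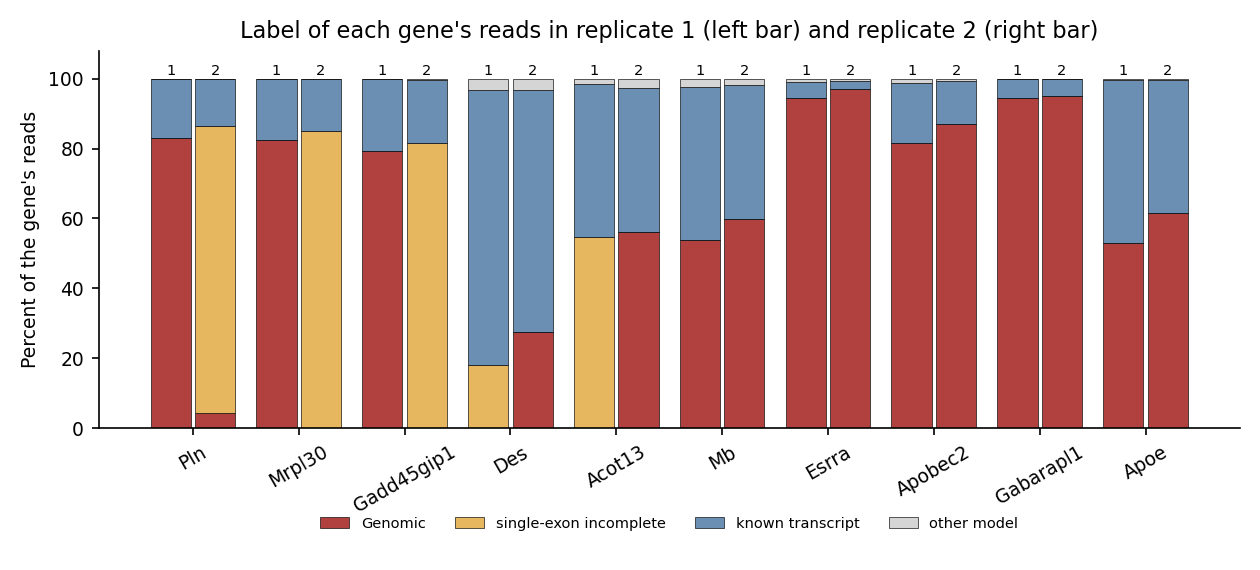
Percent of each gene's reads (y axis) by the label of the model in replicate 1 (left bar) and replicate 2 (right bar) for the 5 genes with the smallest p for a share difference and the 5 last-exon loci with the most reads. Reads of Pln, Mrpl30 and Gadd45gip1 are mostly Genomic in replicate 1 and mostly single-exon incomplete in replicate 2. Des and Acot13 have single-exon incomplete reads in replicate 1 only and Genomic reads in replicate 2 only, and known transcripts hold most Des reads in both. Mb, Esrra, Apobec2, Gabarapl1 and Apoe have more Genomic than known-transcript reads in both.

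The genomic share differed between the libraries in 228 of the 4087 genes (5.58%) by Fisher's exact test adjusted over all of them. Only genes with genomic reads could be called, and 8.21% of those 2777 genes were. The share was higher in replicate 1 in 103 of the 228 and lower in 125. In 164 of the 228, 1 library had no genomic read, and in 161 of these that library had single-exon incomplete reads. Pln had 83.0% in replicate 1 and 4.44% in replicate 2, Mrpl30 82.4% and 0%, Des 0% and 27.4%, Acot13 0% and 56.1%, and Gadd45gip1 79.3% and 0%. Joined with the single-exon incomplete reads, these shares were 83.0% and 86.5%, 82.4% and 85.1%, 18.0% and 27.4%, 54.8% and 56.1%, and 79.3% and 81.6%. After that joining 30 of the 4087 genes were called (0.734%), and 20 of the 30 were among the 228. Pln and Des were still called (adjusted p of Fisher's exact test 1.08e-07 and 1.44e-09), and Mrpl30, Acot13 and Gadd45gip1 were not.

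The share of genomic reads was larger in protein-coding genes with long last exons. In genes whose longest last exon was up to 500 bases, they were 1.72% of reads in replicate 1 and 2.02% in replicate 2. For 500 to 1000 bases the shares were 3.89% and 5.29%, for 1000 to 2000 bases 5.06% and 7.21%, for 2000 to 4000 bases 12.9% and 11.2%, and above 4000 bases 11.99% and 13.66%. Pln lies in the bin of 2000 to 4000 bases, which had 9.14% and 11.7% without it. The single-exon incomplete share, Pln included, did not rise in step. From the shortest to the longest bin it was 3.88%, 5.45%, 3.87%, 2.94% and 1.57% in replicate 1. In replicate 2 it was 4.81%, 6.57%, 4.95%, 8.86% and 2.49%. How the division of reads between these labels bears on the genomic trend was not tested. Over 1911 genes with 50 or more reads in each library, Spearman's rho between last exon length and genomic share was 0.29 in replicate 1 and 0.30 in replicate 2. The genomic shares of the libraries had a rho of 0.59 with each other. These are correlations across genes that share their library and its labels, and genes are not independent replicates.

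**Figure D5:**
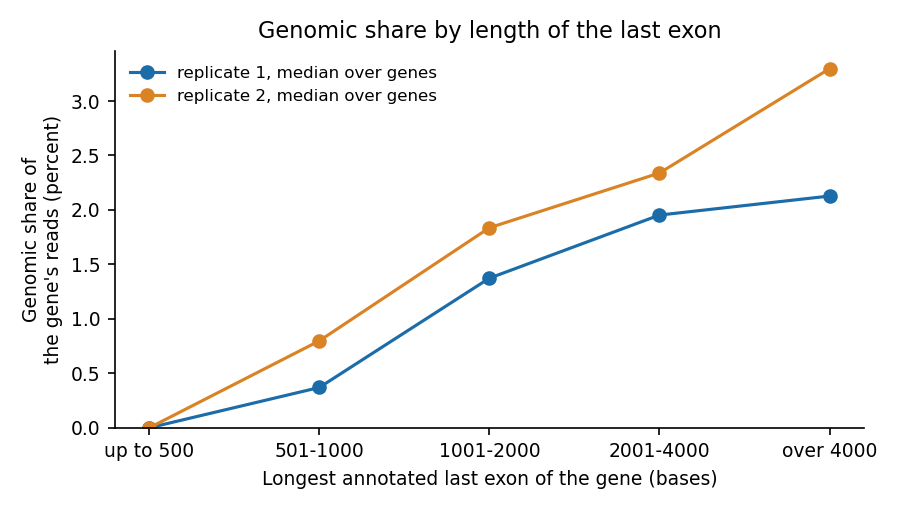
Median genomic share of a gene's reads in percent (y axis) by the length of its longest annotated last exon in bases (x axis), for protein-coding genes with 50 or more reads in each library. Lines join the medians of replicates 1 and 2. The median is 0 in the shortest bin and 2.13% and 3.30% in the longest.

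Gene lists of heart biology differed widely in their genomic share. Over all known genes it was 5.82% in replicate 1 and 6.38% in replicate 2, with a median of 1.79% over the 4087 genes tested, taking each gene's mean of the libraries, as for the medians given with the lists. The calls below are to be read against the 5.58% of all genes. Of all 164 genes called with 0 genomic reads in 1 library, 161 had single-exon incomplete reads there. With single-exon incomplete reads joined in, all known genes were at 9.69% and 12.1%, and each list is given with that joined share too.

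Sarcomere and Z-disc genes had low shares, 0.806% and 2.13%, and 6 of 28 tested were called, 3 in each direction (median share 0.939%). The joined share was 3.11% and 3.88%. Des, Tcap and Myom2 held the most genomic reads. Myom2, an M-band protein, had 0 and 136 genomic reads of 269 and 379. Calcium handling genes reached 35.7% and 4.70%, and Pln supplied 5358 of the 5810 genomic reads of the list in replicate 1. With single-exon incomplete reads added the list was at 36.5% and 42.7%. In that list 4 of 18 genes were called, 2 in each direction (median 9.40%). Srl, the sarcoplasmic reticulum protein sarcalumenin, had 12.7% and 14.1%, and Atp2a2, the calcium pump itself, 2.29% and 2.85%, neither of them called.

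Fatty acid genes had 1.07% and 1.28%, with 1 of 24 called, higher in replicate 1 (median 0.186%), and a joined share of 2.53% and 3.28%. Lpl, the lipase that frees fatty acids for uptake, had 137 and 206 genomic reads, Pdk4, which restrains pyruvate oxidation, 37 and 148, and the fatty acid transporter Cd36 26 and 55. Nuclear respiratory chain genes had 0.497% and 0.822%, with 6 of 24 called, 1 higher and 5 lower in replicate 1 (median 0.0356%), and a joined share of 4.93% and 5.97%. Sdha, the flavoprotein of succinate dehydrogenase, had 99 of 1366 reads in replicate 1 and 202 of 1621 in replicate 2, 7.25% and 12.5%. That difference was called (Fisher's exact test, adjusted p = 7.91e-05) and was also called after joining the single-exon incomplete reads (adjusted p = 9.85e-04). Atp5o, a subunit of ATP synthase, had 0 and 241 genomic reads, and Sdhd, the membrane anchor of succinate dehydrogenase, had 124 and 0.

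Cardiac transcription factors and nuclear receptors had 57.7% and 66.5%, of which Esrra supplied 784 of 864 reads in replicate 1 and 1491 of 1629 in replicate 2. In that list 2 of 11 tested genes were called, 1 in each direction (median 8.82%), and the joined share was 59.2% and 68.1%. The Esrra share of 94.5% and 97.1% was called with an adjusted p of Fisher's exact test of 0.0300, and it was no longer called after the joining (adjusted p = 0.144). Tead1, the Hippo pathway factor, had 9 of 9 and 20 of 21 reads on genomic models, and the cardiac factor Gata4 9 of 59 and 17 of 109. Splicing factors and RNA-binding proteins had 9.39% and 13.1%, with 0 of 25 called and 1 at an unadjusted p under 0.05 (median 2.56%), and a joined share of 15.8% and 14.9%. Of these, Hnrnpa2b1 had 66 and 122 genomic reads, and against its known-transcript reads alone its share was called lower in replicate 1, by 17.7 points (Fisher's exact test, adjusted p = 0.00111). The helicase Ddx5 had 38 and 78 genomic reads, and Qk, the quaking splicing regulator, 30 and 56.

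Clock genes had 11.6% and 12.1%, with 2 of 4 tested called, 1 in each direction (median 8.26%), and a joined share of 16.7% and 23.3%. Tef, a PAR bZIP factor, was the gene called lower in replicate 1, with 0 and 13 genomic reads, and it was not called after joining with incomplete reads, nor against known-transcript reads alone (adjusted p of Fisher's exact test 0.107). Clock itself had 6 of 9 and 5 of 7 reads on genomic models. Nuclear long noncoding RNAs had 18.5% and 22.6% on 34 and 79 reads, with 0 of 2 called and 0 at an unadjusted p under 0.05 (median 26.6%), and a joined share of 19.02% and 23.14%. Mhrt, the RNA antisense to Myh7, had 24 of 50 and 56 of 96 reads on genomic models, Snhg14 5 of 5 and 14 of 14, and the intronic Airn models 2 and 7 reads.

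Matrix and fibroblast genes had 1.43% and 1.17%, with 0 of 13 called and 2 at an unadjusted p under 0.05 (median 0.0603%), led by Sparc with 33 and 34 genomic reads, followed by Lamc1 with 0 and 7 and Bgn with 6 and 0. Their joined share was 5.50% and 6.95%. Endothelial and mural genes had 3.43% and 4.15%, with 0 of 13 called and 1 at an unadjusted p under 0.05 (median 0%). Their joined share was 10.7% and 11.3%. Among them were the junction protein Esam with 8 and 27 genomic reads, the receptor Tie1 with 5 and 14 and Flt1, a VEGF receptor, with 10 and 2. Immediate early and stress genes had 0.723% and 1.20%, with 0 of 11 called and 1 at an unadjusted p under 0.05 (median 0%), and Klf4 with 4 and 14, Klf6 with 7 and 6 and Dusp1 with 3 and 3 genomic reads led them. Their joined share was 1.67% and 2.71%. For these lists, tested with Fisher's exact test, a p above the threshold does not show equal shares.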

How the data were processed

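For each library the authors deposited a table of read counts, whole numbers for every transcript model, with the models' coordinates. The counts were not normalized. Coordinates follow mm10 and the known models GENCODE M21, per the deposited descriptions, and TALON is the source given in the model annotation. For the aligner, filters and versions, nothing is given in the sources used here. Extents and labels of models are the authors' and decide what counts as genomic.

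Models on ERCC spike-ins were left out, and SIRV spike-ins were not analysed here. Classes used all known exons of the gene the model was assigned to, and models were joined by any overlap of exons on a strand. Between the libraries, features whose summed count reached 10 were set against each library's fraction of the mouse reads by an exact binomial test (two-sided, Benjamini-Hochberg over all features, threshold 0.05). Features were known transcripts, matched by identifier, new spliced models, matched by their introns, and new unspliced models, matched by overlap. Genomic shares of genes with 20 or more reads per library were compared by Fisher's exact test, adjusted over all such genes. A model with residual spread cannot be fitted to 2 libraries of 1 group, so edgeR 4.0.16 and DESeq2 1.42.0 (R 4.3.3) served only for scaling alternatives. Both tests were run on simulated counts with planted changes and counting error only. The simulation held no spread between libraries and no change of labels, so it does not cover these. Sequences were cut from GENCODE M21 transcripts with their exon coordinates. Calculations used Python 3.11.15, numpy 2.4.6, scipy 1.17.1 and pandas 2.3.3.

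The members and the 11 gene lists were chosen with earlier results of these data known. Named were the 8 loci per class with the most reads in their lower library, the 3 highest and 3 lowest ratios among called loci with reads in both, the 10 genes with the highest genomic share among those with 50 reads in each library, the 5 genes with the smallest p, up to 3 members per list with the most genomic reads, and sequences of the leading loci outside chromosome 18. Results of 2 genes that this rule names are not reported here. Alternatives covered denominators, exon sets, joining, minimums, scaling and leaving out a replicate.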

Additional observations from a re-analysis of the deposited data

Results flagged for a closer look

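Genomic models also occur in genes that the annotation does not hold, outside the comparisons above. They held 291 reads on 117 models in replicate 1 and 555 reads on 249 models in replicate 2, above the 3 reads that a count of 0 allows. No control sample exists in the series to set them against.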

How the results depend on the processing

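The share of mouse reads on genomic models, 5.86% on average, was 5.37% over models with at least 2 reads, 5.51% without Pln, 5.41% without models of 1 base and 10.5% with single-exon incomplete models joined in, and 5.62% to 6.11% when a replicate was left out. With known-gene reads as the denominator it was 6.10%. Leaving out a replicate gave 84.7% to 89.1% for the last-exon share, 5.63% to 7.37% for the intronic and 4.39% to 6.82% for the spanning share. The class shares moved by less than the SD between libraries under each of the exon sets, the 10-base tolerance and the removal of Pln. The share of loci in both libraries, 34.4%, was 32.6% with a required overlap of 50% of the shorter model. It was 28.2% with joined 3′ ends, 44.0% with incomplete models joined in and 34.4% after thinning replicate 2. A different measure is the share of the loci of 1 library that were found in the other. For loci with 5 or more reads its mean over both directions was 85.5%. Without that minimum it was 59.97% for loci of replicate 1 and 44.7% for loci of replicate 2. The 256 called loci were 295 with TMM and 344 with DESeq2 factors, which shifted all log2 ratios by -0.16 and -0.32, 199 without a minimum, 270 with the stricter overlap and 262 against the other reads of the gene. With TMM factors the loci of Usp50, Doc2g and Gm45692 gained a call, and with DESeq2 factors these and the loci of Tcap, Gm45233 and Jarid2. The called loci were 57 with incomplete models joined in and 64 among loci with members in both libraries. The 228 called genes were 238 at 10 reads, 186 at 50 reads, 167 against known-transcript reads and 30 after the joining. The joining also turned the direction of the difference in share, replicate 1 minus replicate 2, for Mrpl30 (-2.68 points), Pln (-3.49), Gadd45gip1 (-2.28), Atp5o (0.490), Sdhd (-2.44), and Tef (1.27), and for Bgn, which was called in neither case (7.69 before and -2.18 after). The joining, the removals of Pln and of models of 1 base, and the restriction to loci in both libraries were chosen after the data were seen. Why a stretch was given another label in each library was not tested. No paired analysis was possible because the series has 1 group. The count tests need both libraries, so no count without a replicate can be given. A-rich stretches and polyadenylation signals at all intronic loci were not run, since bases outside annotated exons were not read here. At 10 reads per locus small differences were not detectable.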
